A study of Mus musculus with 10 samples.

Results

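A set of 10 endothelial genes was followed through the blood libraries of control and metformin-treated mice. The genes were Vegfa, Kdr, Flt1, Tie1, Eng, Cdh5, Pecam1, Egfl7, Cd36 and Fabp4, chosen by name, and all 10 of 10 were present among the 8904 genes of the table. Blood was sampled from adult C57BL/6 mice that had received PBS (the control group, 5 libraries) or metformin (the metformin-treated group, 5 libraries) for 30 days. The labels name no other difference between the groups. The route of metformin for these mice is not given in the labels, and each library was taken as 1 mouse, although nothing says that they came from separate animals. P-values therefore measure only the spread between these libraries.

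Endothelial cells line every vessel and are held together by VE-cadherin and CD31. Vascular endothelial growth factor binds receptor kinases on these cells and drives their growth, while capillary endothelium of heart, muscle and fat also takes up fatty acids for the tissue beneath. Whole blood holds few such cells, although platelets and leukocytes carry CD31 and platelets, monocytes, fat and muscle carry the fatty acid receptor CD36. In bulk RNA, fewer cells of a type and less RNA per cell cannot be told apart.

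The deposited values are log2 FPKM, fragments per gene scaled by gene length and library total, with an offset before the log that is not stated. When each library is sorted, its values are almost those of the next one (SD between libraries at a given rank up to 0.0399). A value is thus close to a rank within its library, and the percentile of a gene, the share of the genes in that library with a lower value, is given beside it. Read counts were not used here and the depth of each library is unknown. At the bottom of the scale many genes share 1 value, with 7 genes at the lowest value in control 5 and 471 in metformin 2. Differences between values under about 1 are therefore coarse.

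The blood label was checked with erythroid markers (15 measured of 21), whose mean log2 FPKM ran from 4.75 to 5.95 in 8 libraries but was only 0.63 for control 1 and 2.22 for control 5. Heart muscle markers (25 measured of 25) averaged 7.07 and 7.17 there, while the remaining 8 libraries ran from 0.17 to 1.51. Control 1 and control 5 were therefore shown apart from control 2, 3 and 4. That division comes from these data and not from the labels, so no test was made between the parts of the control group. Results of metformin against control are given with all 10 libraries and again without control 1 and control 5.

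Promoter windows from RefSeq (GRCm38.p6) are shown for Egfl7, Eng and Tie1, which stood apart in control 1 and control 5 as described next, and for Cd36, which did not. Each runs from 250 bases before to 50 after a start listed for the gene, which need not be its outermost start. The windows shown for Cd36 and Egfl7 lie inside the spans given below for these genes and do not cover the outermost start. The windows are chr2:26580833-26581132 (plus strand) for the most upstream of the starts listed for Egfl7, chr2:32646345-32646644 (plus strand) for Eng, chr4:118489800-118490099 (minus strand) for Tie1 and chr5:17835847-17836146 (minus strand) for Cd36. Capitals mark CAGGAA or its reverse complement TTCCTG, a form of the site read by ETS factors, the family that includes the endothelial regulator Erg.
Egfl7: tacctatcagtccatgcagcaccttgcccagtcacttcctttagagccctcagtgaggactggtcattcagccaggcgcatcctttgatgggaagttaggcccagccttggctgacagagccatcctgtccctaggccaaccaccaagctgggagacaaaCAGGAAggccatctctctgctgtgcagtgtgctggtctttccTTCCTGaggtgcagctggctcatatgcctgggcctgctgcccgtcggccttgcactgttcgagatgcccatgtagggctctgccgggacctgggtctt
Eng: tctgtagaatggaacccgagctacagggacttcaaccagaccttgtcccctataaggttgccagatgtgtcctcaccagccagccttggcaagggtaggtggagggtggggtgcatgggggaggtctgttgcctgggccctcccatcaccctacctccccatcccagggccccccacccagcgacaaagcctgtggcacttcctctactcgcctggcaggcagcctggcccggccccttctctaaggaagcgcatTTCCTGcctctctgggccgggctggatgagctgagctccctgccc
Tie1: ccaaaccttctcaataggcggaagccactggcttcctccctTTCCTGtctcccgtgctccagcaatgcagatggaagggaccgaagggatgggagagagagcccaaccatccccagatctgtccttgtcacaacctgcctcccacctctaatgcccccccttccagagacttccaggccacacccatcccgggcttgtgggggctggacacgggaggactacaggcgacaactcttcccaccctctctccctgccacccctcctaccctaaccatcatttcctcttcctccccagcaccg
Cd36: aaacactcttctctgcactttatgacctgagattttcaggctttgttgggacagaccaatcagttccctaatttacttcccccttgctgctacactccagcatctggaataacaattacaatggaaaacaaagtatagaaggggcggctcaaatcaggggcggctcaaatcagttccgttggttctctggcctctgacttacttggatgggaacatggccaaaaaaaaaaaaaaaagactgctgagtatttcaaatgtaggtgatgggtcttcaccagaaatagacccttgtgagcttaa
The Egfl7 window holds 2 matches, those of Eng and Tie1 1 each, and that of Cd36 none. Of the genes that stood apart, Vegfa also has a window with a match, while the window of Flt1 holds none, nor do another window of Egfl7 and one of Vegfa. The window of Kdr, which like Cd36 did not stand apart, holds none either. Whether matches go with standing apart was not tested. Windows were found for 7 of the 10 genes, and 5 of their 10 windows hold a match, beside 30.6% of all 32851 windows of this length. Searched the same way, the GATA site AGATAA with its reverse complement TTATCT occurred in 1 of these 10 windows, 1 of those of Vegfa, beside 11.2% of all windows. A match describes the letters only and is not evidence of binding.

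Of the 10 genes, 7 had values in control 1 and in control 5 above all 8 other libraries. These were Vegfa, Flt1, Tie1, Eng, Cdh5, Egfl7 and Fabp4. Over all measured genes 20.0% did so, and these 2 libraries were singled out from the same table, so the count is a description. None of the 10 genes had both values below the other 8, as 12.2% of all genes did. Kdr, Pecam1 and Cd36 overlapped with the other libraries.

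**Figure D1:**
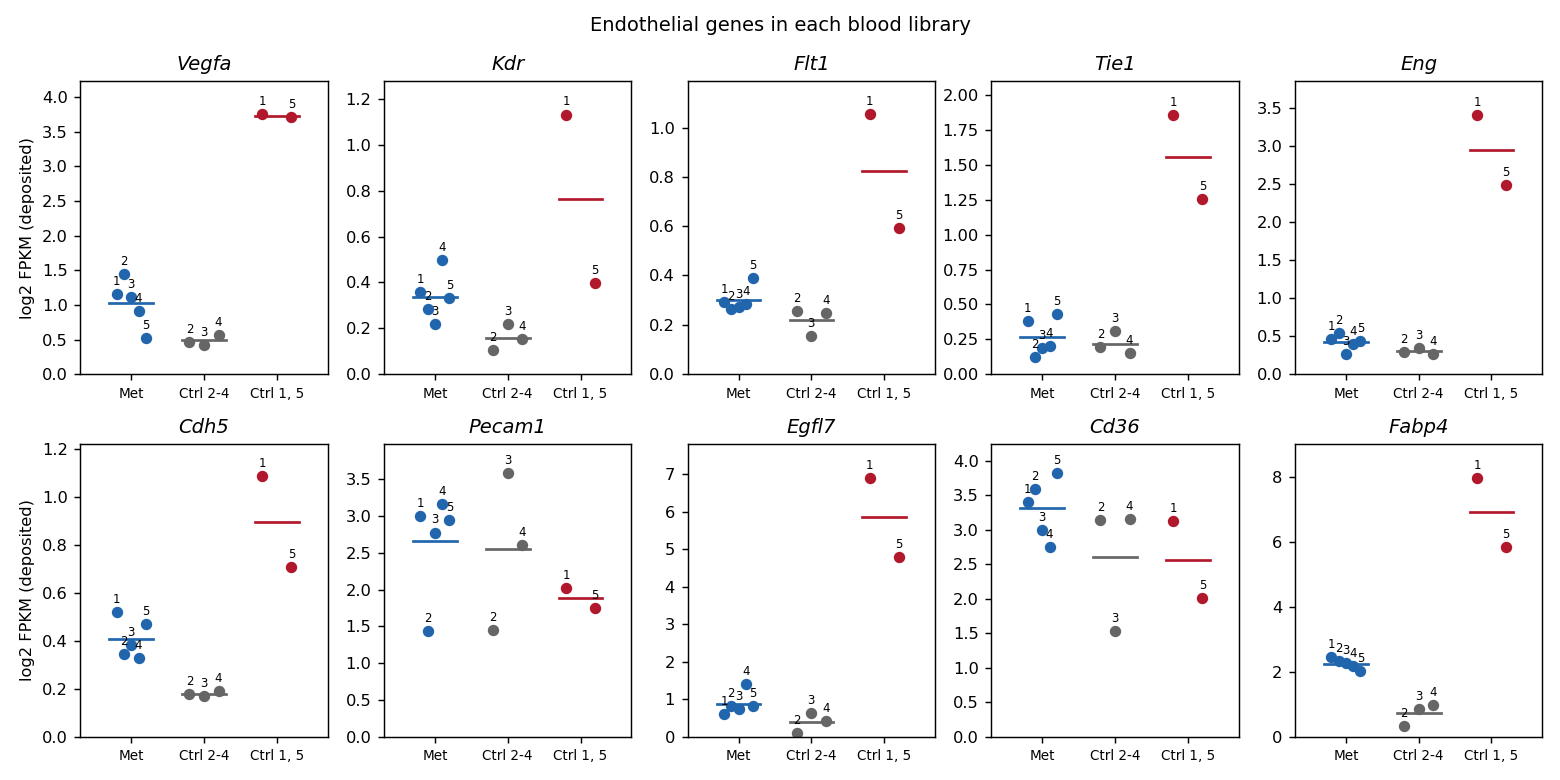
Deposited log2 FPKM of the 10 genes (vertical axis, a separate scale for each gene, from 0) in the metformin-treated group, in control 2 to 4 and in control 1 and 5. Each point is 1 library with its replicate number, and bars are means. Egfl7 reached 6.89 in control 1, 4.80 in control 5 and no more than 1.41 elsewhere, while Pecam1 and Cd36 overlapped.

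Vegfa (ENSMUSG00000023951, chromosome 17, 46016993 to 46032369 on GRCm38) encodes the growth factor itself, which muscle and many other cells secrete. Its log2 FPKM was 3.75 in control 1 and 3.71 in control 5. It was 0.46, 0.43 and 0.57 in control 2, 3 and 4, and 1.16, 1.44, 1.12, 0.91 and 0.52 in metformin 1 to 5. Control 1 and control 5 were nearly equal and far above the rest, and metformin 5 lay within the range of control 2 to 4. In percentiles, Vegfa was above 95.5% and 95.4% of genes in control 1 and control 5 and above 19.5% to 77.9% in the other 8.

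Kdr (ENSMUSG00000062960, chromosome 5, 75932827 to 75978458) encodes VEGFR2, the main signalling receptor for VEGF. Kdr had a log2 FPKM of 1.13 in control 1 and 0.40 in control 5. In control 2, 3 and 4 it was 0.11, 0.22 and 0.15, and in metformin 1 to 5 it was 0.36, 0.28, 0.22, 0.50 and 0.33. Only control 1 stood apart, because metformin 4 lay above control 5. In control 2 the value was the lowest of that library, which 387 genes share.

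Flt1 (ENSMUSG00000029648, chromosome 5, 147561604 to 147726011) encodes VEGFR1, which binds VEGF tightly and acts largely as a decoy. Control 1 had a log2 FPKM of 1.06 and control 5 of 0.59. It was 0.25, 0.15 and 0.25 in control 2 to 4 and 0.29, 0.26, 0.27, 0.28 and 0.39 in metformin 1 to 5. These 8 values had percentiles of 3.5 to 15.9, and control 1 and control 5 had 65.0 and 34.0.

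Tie1 (ENSMUSG00000033191, chromosome 4, 118471191 to 118490061) encodes an orphan receptor kinase that pairs with the angiopoietin receptor Tek. Its log2 FPKM was 1.86 in control 1 and 1.26 in control 5. It was 0.19, 0.31 and 0.15 in control 2 to 4 and 0.38, 0.12, 0.19, 0.20 and 0.43 in metformin 1 to 5. The value in metformin 2 was the lowest of that library. The other groups overlapped.

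Eng (ENSMUSG00000026814, chromosome 2, 32646595 to 32682669) encodes endoglin, a co-receptor for ligands of the TGF-beta and BMP family, also present on activated monocytes. Control 1 stood at a log2 FPKM of 3.41 and control 5 at 2.49. It was 0.29, 0.35 and 0.27 in control 2 to 4 and 0.46, 0.54, 0.27, 0.40 and 0.43 in metformin 1 to 5. Eng had percentiles of 94.7 and 91.0 in control 1 and control 5 and of 7.8 to 28.9 in the others. It overlaps Fpgs on the opposite strand by 61 bases, and reads of both cannot be told apart there. Fpgs reached 0.97 in control 1 and 0.73 in control 5, and 0.20 to 0.90 elsewhere.

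Cdh5 (ENSMUSG00000031871, chromosome 8, 104101625 to 104144511) encodes VE-cadherin, the adhesion molecule of endothelial junctions. In log2 FPKM, Cdh5 reached 1.09 in control 1 and 0.71 in control 5. It was 0.18, 0.17 and 0.19 in control 2 to 4 and 0.52, 0.35, 0.38, 0.33 and 0.47 in metformin 1 to 5. The 3 sets of libraries did not overlap, with the metformin-treated group between the others.

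Egfl7 (ENSMUSG00000026921, chromosome 2, 26580014 to 26593120) encodes a matrix protein secreted by endothelium that guides vessel formation. Its log2 FPKM was 6.89 in control 1 and 4.80 in control 5. It was 0.11, 0.63 and 0.41 in control 2 to 4 and 0.62, 0.81, 0.75, 1.41 and 0.83 in metformin 1 to 5. The value in control 2 was the lowest of that library, and in control 1 the gene was above 99.2% of all genes. The mean of control 1 and control 5 exceeded that of the other 8 libraries by 5.15 on the log2 scale, next to 5.23 for Fabp4. Agpat2 overlaps it by 64 bases on the opposite strand and reached 1.03 in control 1 and 1.20 in control 5, with 0.27 to 1.09 elsewhere.

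Fabp4 (ENSMUSG00000062515, chromosome 3, 10204088 to 10208576) encodes a fatty acid carrier of capillary endothelium, fat cells and macrophages. Fabp4 reached a log2 FPKM of 7.97 in control 1 and 5.85 in control 5. It was 0.33, 0.85 and 0.98 in control 2 to 4 and 2.46, 2.34, 2.28, 2.18 and 2.02 in metformin 1 to 5. Again the 3 sets of libraries did not overlap, and the metformin-treated group lay between. Fabp4 was above 87.3% to 90.8% of genes in the metformin libraries and above 11.5% to 61.1% in control 2 to 4.

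Cd36 (ENSMUSG00000002944, chromosome 5, 17781690 to 17888801) encodes a receptor that carries long-chain fatty acids into cells. Cd36 had a log2 FPKM of 3.12 in control 1 and 2.02 in control 5. It was 3.14, 1.54 and 3.15 in control 2 to 4 and 3.40, 3.60, 2.99, 2.75 and 3.82 in metformin 1 to 5. Its percentiles were 80.1 to 95.6 over the 10 libraries, and control 1 and control 5 did not stand apart.

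Pecam1 (ENSMUSG00000020717, chromosome 11, 106654217 to 106750628) encodes CD31, found at endothelial junctions and on platelets and leukocytes. Pecam1 had a log2 FPKM of 2.02 in control 1 and 1.75 in control 5. It was 1.45, 3.58 and 2.60 in control 2 to 4 and 2.99, 1.43, 2.77, 3.16 and 2.95 in metformin 1 to 5. Metformin 2, control 2, control 5 and control 1 were the low libraries, and control 3 was the highest.

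Since FPKM is scaled by length, the levels of the genes can be ordered within a library. In control 1 the order of log2 FPKM ran Fabp4, Egfl7, Vegfa, Eng, Cd36, Pecam1, Tie1, Kdr, Cdh5 and Flt1. Control 5 had the same leading 7, with Kdr last. In the mean of the other 8 libraries Cd36 (3.05) and Pecam1 (2.62) led, and Kdr, Flt1 and Tie1 (0.27, 0.27 and 0.25) were lowest. Over these 8 libraries the ranges of Cd36 (1.54 to 3.82) and Pecam1 (1.43 to 3.58) overlapped, as did those of Eng, Cdh5, Kdr, Flt1 and Tie1. The mean over the 10 genes was 3.23 in control 1 and 2.36 in control 5, 1.12 to 1.26 in the metformin libraries and 0.65 to 0.87 in control 2 to 4.

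Of 41 other endothelial markers, 33 were measured, and 21 of these were above all 8 other libraries in both control 1 and control 5. The median difference between the mean of control 1 and control 5 and that of the other 8 was 0.74 on the log2 scale, against 0.94 for the 10 genes and -0.02 over all measured genes. The largest differences were in Ly6c1, at 4.95 and 3.84 against 0.45 to 1.60, and Gpihbp1, which anchors lipoprotein lipase to capillary walls, at 3.85 and 2.90 against 0.11 to 0.88. Ushbp1 (2.89 and 1.72 against 0.11 to 0.31) and the tight junction protein gene Cldn5 (3.11 and 1.34 against 0.089 to 0.79) came next. The endothelial nitric oxide synthase Nos3 was at 1.49 and 0.88 against 0.07 to 0.26. Vwf, the von Willebrand factor that platelets store as well, overlapped. Control 1 and control 5 had 3.66 and 3.96, and the other 8 libraries 0.31 (metformin 2) to 4.36 (metformin 5).

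**Figure D2:**
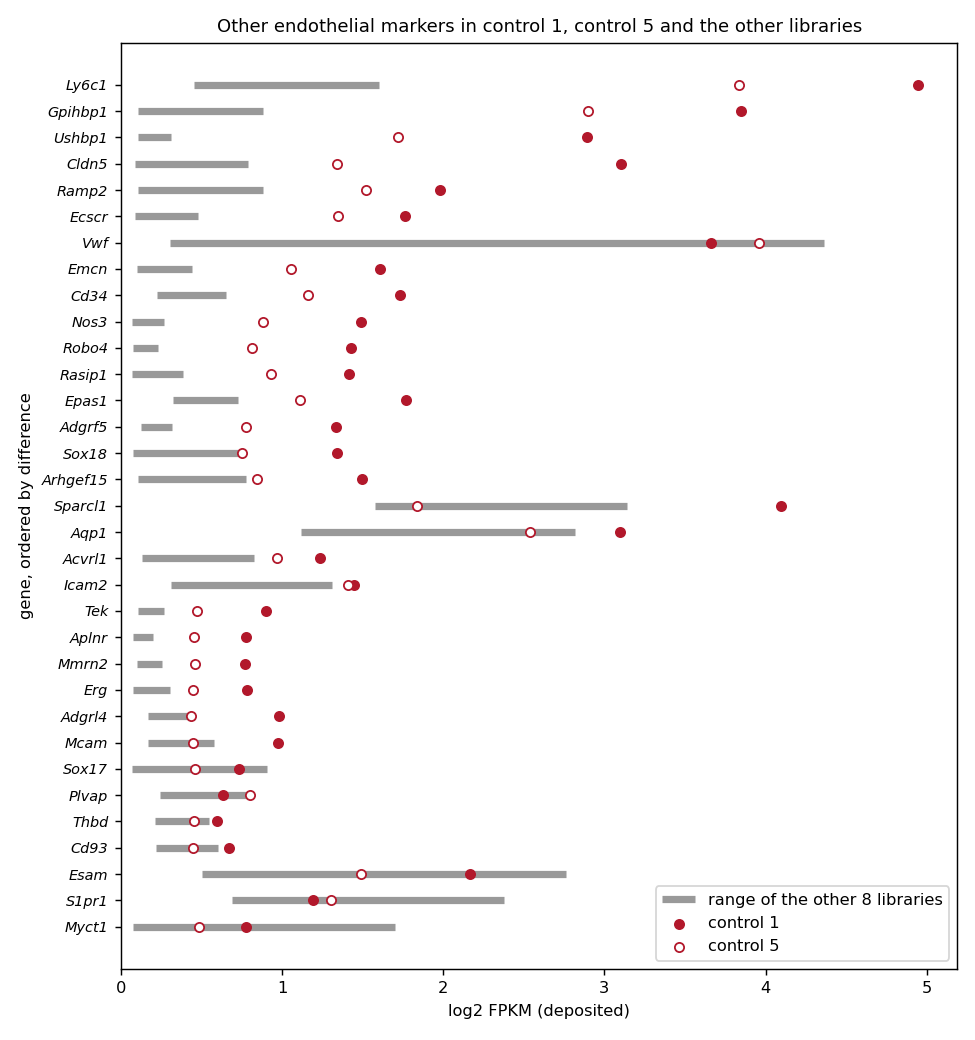
Deposited log2 FPKM (horizontal axis) of 33 other endothelial markers (rows, ordered by the mean of control 1 and control 5 minus the mean of the other libraries). Filled and open points are control 1 and control 5, and grey bars are the range of the other 8 libraries. Ly6c1 and Gpihbp1 stand farthest to the right of their bars, and Vwf, Esam and S1pr1 lie within them.

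The partners of the 10 genes followed in part. Of 11 genes for VEGF and angiopoietin ligands and receptors, 5 were measured, and Vegfb, Pgf, Nrp1 and Tek were above all 8 other libraries in control 1 and control 5. Vegfb, a ligand of Flt1, was highest, at 2.95 and 2.98 against 0.38 to 1.39. Of 15 genes of endothelial lipid transport 12 were measured and 8 were above, among them Lpl (lipoprotein lipase, 5.13 and 4.11 against 0.18 to 1.05) and Fabp3 (the carrier of heart muscle, 7.02 and 6.86 against 0.11 to 1.89). Of 8 measured genes of endoglin and BMP signalling, 3 were above (Id1, Id3 and the receptor gene Acvrl1), led by Id1, a target of BMP signalling, at 2.88 and 1.74 against 0.12 to 0.77. Of 6 measured Notch genes 2 were above, Notch4 and Jag2. Of 8 genes of oxygen sensing 3 were, Epas1, Egln1 and Egln2, while Hif1a was not. Of 34 genes of VEGF receptor signalling 7 were above, a share of 20.6% that is near the 20.0% of all genes. Of 13 junction genes 1 was, Cldn5.

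Control 1 and control 5 differed from each other in the endothelial genes. All 10 were higher in control 1, by 0.046 (Vegfa) to 2.12 (Fabp4) on the log2 scale, with a median of 0.67. Of all genes 57.2% were higher in control 1, and of those above the other 8 libraries in both, 74.1%. Egfl7 was higher by 2.09, Cd36 by 1.11, Eng by 0.93 and Kdr by 0.73. Of the 33 other endothelial markers 30 were higher in control 1 (median 0.52), and of 14 fibroblast and mural cell markers all 14 were (median 0.66). Heart muscle markers were closer to even, with 15 of 25 higher in control 1 and a median difference of 0.16. Every measured marker of platelets (18), monocytes and macrophages (15), neutrophils (13) and B and T cells (16) was lower in control 1. The median difference was -1.35, -0.90, -2.80 and -1.22 for these lists. With 1 library on each side there is no replicate error for these differences.

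**Figure D3:**
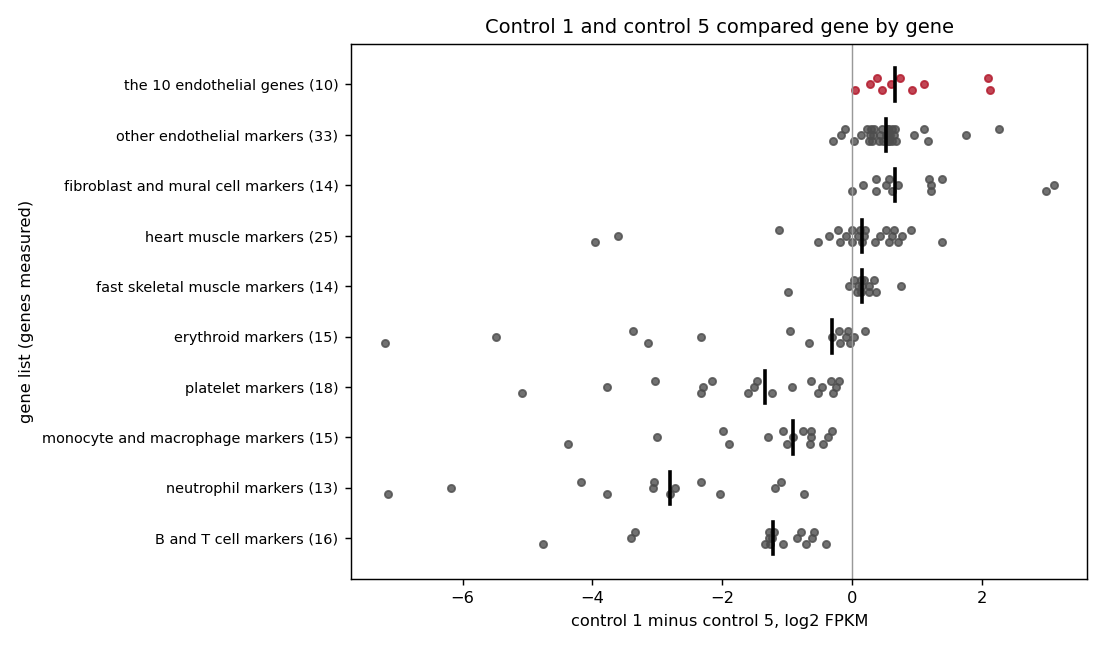
Difference between control 1 and control 5 in log2 FPKM (horizontal axis) for each measured gene of 10 lists (rows, with the number of genes). Points are genes and black bars are medians. The 10 endothelial genes all lie right of 0, while the platelet, monocyte, neutrophil and lymphocyte markers all lie left of it.

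With all 10 libraries none of the 10 genes was called between the metformin-treated and the control group. The limma test took genes that reached a log2 FPKM of 1 in 5 or more libraries, and 4 of the 10 did so (Vegfa, Pecam1, Cd36 and Fabp4), as did 3442 of all genes. None of the 4 was higher or lower at an adjusted p under 0.05, beside 4.21% of tested genes higher and 3.11% lower (7.32% in all), and none had an unadjusted p under 0.05, as 28.8% of tested genes had. Cd36 had a log2 difference of 0.72 (standard error 0.40, adjusted p = 0.237 from limma), with means of 3.31 ± 0.438 (SD, n = 5) and 2.59 ± 0.764 (SD, n = 5). Pecam1 had 0.38 (standard error 0.46, adjusted p = 0.565 from limma). Vegfa was at 1.03 ± 0.342 (SD, n = 5) in the metformin-treated group against 1.78 ± 1.78 (SD, n = 5) in the control group, and Fabp4 at 2.26 ± 0.168 (SD, n = 5) against 3.20 ± 3.48 (SD, n = 5). Their log2 differences were -0.75 (standard error 0.70, adjusted p = 0.452 from limma) and -0.94 (standard error 1.33, adjusted p = 0.629 from limma). The control SD of Fabp4 exceeded its mean, since control 1 and control 5 lay far above the other controls.

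For all 10 genes a two-sided exact permutation test of the means over the 252 arrangements of the libraries was run as well. Its p was 0.119 for Cd36 and 0.325 to 0.913 for the other 9, and after adjustment over all 8904 genes 0.375 to 0.955. Of all genes 18.1% had an exact permutation p under 0.05, and 0 of the 10 did. No gene of the 10 had all metformin values above or below all control values, as 6.26% of all genes had. The differences of Kdr (-0.06), Flt1 (-0.16), Tie1 (-0.49), Eng (-0.94), Cdh5 (-0.06) and Egfl7 (-1.69) were negative, as were those of Vegfa and Fabp4, so 8 of the 10 were negative, and over all genes 42.4% of differences were positive. Without control 1 alone Egfl7 was at -0.61, Eng at -0.43, Tie1 at -0.21 and Flt1 at -0.011, and Kdr (0.12) and Cdh5 (0.098) were positive.

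Without control 1 and control 5 all 10 differences were positive, beside 50.9% of all genes, and Fabp4 was called. Several of these differences were near 0. Fabp4 was at 2.26 ± 0.168 (SD, n = 5) against 0.72 ± 0.345 (SD, n = 3) in control 2 to 4, a log2 difference of 1.53 (standard error 0.20, adjusted p = 0.000980 from limma). Among these 8 libraries only the 5 metformin libraries held Fabp4 above the filter value of 1, so it was tested through the group where it was high. Vegfa was above 1 only in metformin 1, 2 and 3 among these 8 (1.16, 1.44 and 1.12). It passed the filter only with control 1 and control 5 counted (3.75 and 3.71), which this comparison leaves out. The count of 1 called gene of the 4 tested is therefore no support in itself. Over all tested genes 5.81% were higher and 9.06% lower (14.9% in all), and 28.7% had an unadjusted p under 0.05. The call held without each of the 8 libraries in turn (adjusted p of limma 0.00158 to 0.00611) and under the 5 other settings tried (0.00134 to 0.00246). Vegfa had a difference of 0.55 (standard error 0.19, adjusted p = 0.0793 from limma). Leaving out each of the 8 libraries in turn, it was called in 1 fit, without metformin 5 (0.67, adjusted p = 0.0260 from limma). The adjusted p of limma rose to 0.189 in the other fits and was 0.0812 to 0.121 under 4 other settings. Cd36 (0.70, standard error 0.42, adjusted p = 0.299 from limma) and Pecam1 (0.12, standard error 0.51, adjusted p = 0.889 from limma) did not pass.

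All 5 metformin values lay above control 2 to 4 in 4 of the 10 genes, Fabp4, Cdh5, Kdr and Flt1, beside 7.97% of all genes. The exact permutation p over 56 arrangements, whose smallest value is 0.0179, was 0.0179 for Fabp4 and Cdh5 and 0.0357 for Kdr and Flt1, and 0.132 and 0.185 after adjustment over all genes. An exact permutation p under 0.05 was reached by 19.3% of all genes. For Cdh5 the means were 0.41 ± 0.0819 (SD, n = 5) and 0.18 ± 0.0104 (SD, n = 3), a difference of 0.23 (standard error 0.065, adjusted p = 0.0539 from limma without the filter on low values, where 3.12% of genes were higher and 5.59% lower). Cdh5 was low in all 8 libraries, at percentiles of 4.2 to 26.7. For Kdr and Flt1 the nearest values of the 2 sides were almost equal (0.219 against 0.217 for Kdr and 0.264 against 0.255 for Flt1), close to the bottom of their libraries. Egfl7 (0.50) had an exact permutation p of 0.0536, Vegfa of 0.0714 and Eng (0.12) of 0.107, and Tie1 differed by 0.05.

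Markers of other tissues also differed between the metformin-treated group and control 2 to 4. Fabp4 was called in that comparison. Cdh5 was above control 2 to 4 in all 5 metformin libraries, but it missed the filter and did not pass after adjustment. The fast skeletal muscle list (14 measured of 16) averaged 4.25 to 4.82 in the metformin-treated group, 0.26 to 0.51 in control 2 to 4, 0.69 in control 1 and 0.56 in control 5. All 14 were higher in the metformin-treated group in limma, with and without control 1 and control 5, beside 4.21% and 5.81% of all tested genes. Except for Pvalb, Acta1 and Myl1, these markers reached the filter value of 1 only in metformin libraries. They were thus tested through the group where they were high, and the count is no support in itself. The adipocyte list (9 measured of 14) averaged 0.43 to 0.49 in control 2 to 4 and 1.19 to 1.61 under metformin. In control 1 and control 5 it averaged 1.64 and 1.69, above all metformin libraries. Of its 9 genes, 7 were above all of control 2 to 4 in all 5 metformin libraries. Among them Cfd, the adipsin of fat cells, was at 1.80 to 2.47 against 0.076 to 0.25, and Cidec, a lipid droplet protein, at 0.59 to 1.05 against 0.07 to 0.11. The defining fat cell genes Adipoq and Plin1 were not analysed here. In limma against control 2 to 4, where 5.81% of all tested genes were higher, 3 of 4 tested adipocyte markers were higher. Of 13 tested heart muscle markers 5 were higher (Tcap, Smpx, Actn2, Cox6a2 and Cox7a1), genes that skeletal muscle also uses. The troponin and myosin genes of the heart list went both ways, with differences that did not pass or were not tested. Negative were Tnnt2 (-1.85), Tnni3 (-1.83, adjusted p = 0.0936 from limma), Myh6 (-1.18), Myl7 (-0.91) and Myl2 (-0.89). Positive were Myh7 (0.55), Tnnc1 (0.39) and Myl3 (0.12). Heart muscle markers averaged 0.17 to 1.51 in control 2 to 4 and 0.99 to 1.24 under metformin. The part of skeletal muscle, heart or fat tissue in the difference of Fabp4 and Cdh5 was not tested.

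**Figure D4:**
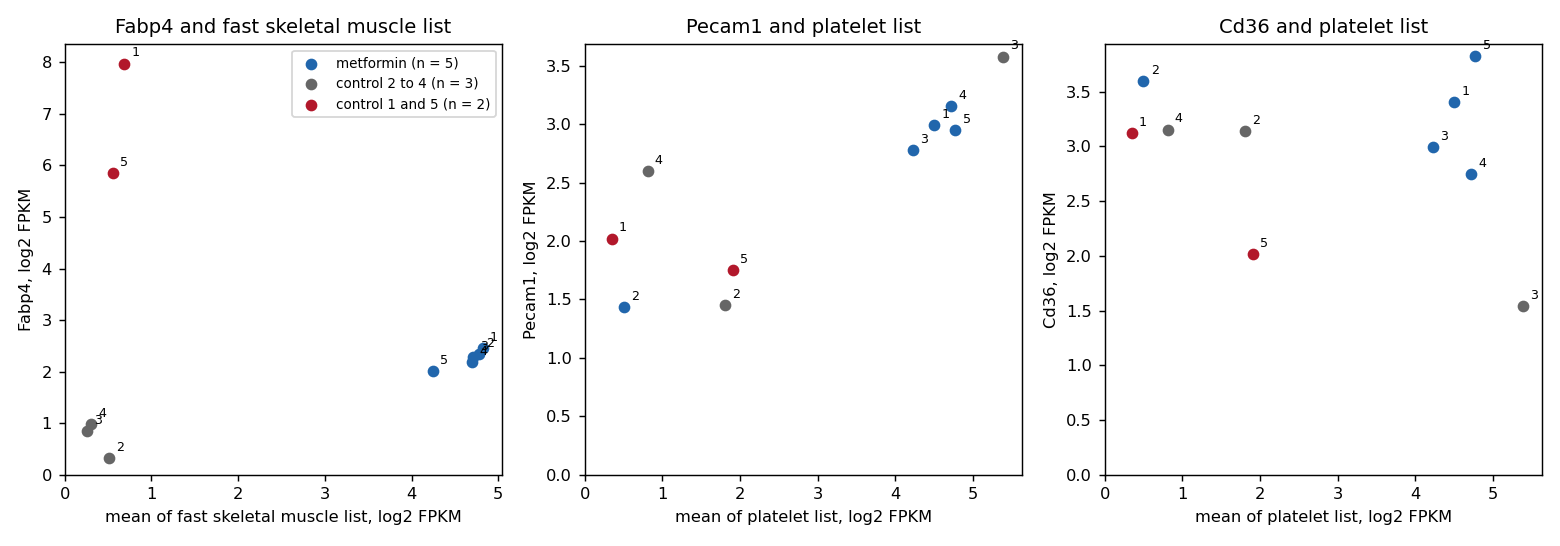
Left, log2 FPKM of Fabp4 (vertical axis) against the mean log2 FPKM of 14 fast skeletal muscle markers (horizontal axis) in each library. Middle and right, Pecam1 and Cd36 against the mean of 18 platelet markers. Points are libraries with their replicate numbers, in 3 colours for the metformin-treated group, control 2 to 4 and control 1 and 5. Pecam1 is lowest, at 1.43, in metformin 2, whose platelet mean is 0.50.

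The platelet list (18 measured of 18) varied within both groups. Its mean was 4.23 to 4.77 in metformin 1, 3, 4 and 5 but 0.50 in metformin 2, and 5.38 in control 3 but 1.80 and 0.81 in control 2 and control 4. Control 1 and control 5 were at 0.35 and 1.91. Beside these means, Pecam1 was at 1.43 in metformin 2 and 2.77 to 3.16 in the other 4 metformin libraries, and at 3.58 in control 3, 1.45 in control 2 and 2.60 in control 4. Esam, an adhesion molecule of endothelium and platelets, was at 0.58 in metformin 2 and 2.25 to 2.76 in the other 4, and at 2.76, 0.54 and 0.50 in control 3, control 2 and control 4. Cd36 had its lowest value, 1.54, in control 3, where the platelet mean was highest. The part of platelets in the levels of Pecam1 was not tested.

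Calls among the pathway genes around the 10 stand beside 7.32% of all tested genes with all libraries and 14.9% without control 1 and control 5. Of the 33 other endothelial markers 8 were tested, and Icam2, an adhesion molecule of endothelium, leukocytes and platelets, was lower in the metformin-treated group (-0.74, standard error 0.12, adjusted p = 0.00747 from limma). Its log2 FPKM was 0.31 to 0.85 in the metformin libraries and 1.27 to 1.44 in the 5 controls, so the groups did not overlap, beside 6.26% of all genes. Icam2 thus reached the filter value of 1 only in the controls. It was tested through the group where it was high, and its call is no support in itself. None of the 8 was called higher. At an unadjusted p under 0.05 in limma, 1 was higher and 2 were lower. Without control 1 and control 5, Icam2 (-0.69, adjusted p = 0.00997 from limma) and S1pr1, a lipid receptor of lymphocytes and endothelium (-0.94, adjusted p = 0.0182 from limma), were lower, and the call of S1pr1 ended without control 4 (adjusted p = 0.0596 from limma). Of 22 tested genes of VEGF receptor signalling, Pxn, the focal adhesion protein paxillin, was lower (-0.92, standard error 0.16, adjusted p = 0.0101 from limma), and none was called higher. At an unadjusted p under 0.05 in limma, 2 of the 22 were higher and 3 lower. The calls of Icam2 and Pxn ended with the replicate number as a block (adjusted p = 0.0750 and 0.0909 from limma). Without control 1 and control 5, Rac2 (-1.74, adjusted p = 0.00224 from limma), Pik3cd (-1.04, adjusted p = 0.00696 from limma), Pxn (-0.78, adjusted p = 0.00932 from limma) and Akt1 (-0.51, adjusted p = 0.0484 from limma) were lower and the small heat shock protein gene Hspb1 was higher (1.06, adjusted p = 0.00367 from limma). Among the 8 libraries of this comparison, Hspb1 reached the filter value of 1 only in the metformin libraries. Hspb1 was thus tested through the group where it was high, and its call is no support in itself. Akt1 lost its call without 7 of the 8 libraries in turn (adjusted p of limma up to 0.119). Rac2 and Pik3cd are signalling genes of leukocytes, and of 12 tested B and T cell markers 8 were lower in the same comparison and none higher. The part of leukocytes in these falls was not tested.

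In the remaining lists no tested gene was called in limma with or without control 1 and control 5. These were 2 ligands and receptors of VEGF and angiopoietin (unadjusted p under 0.05 in 0 and 1), 1 gene of oxygen sensing (1 and 0), 3 of endoglin signalling (0 and 0), 5 of junctions (1 and 0) and 4 of lipid transport (1 and 2). Vegfb had a difference of 0.49 (adjusted p = 0.0742 from limma) without control 1 and control 5, at 0.73 to 1.39 in the metformin libraries against 0.38 to 0.78.

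For each of the 10 genes the nearest genes of the table were taken by the root mean square difference of log2 values centred per gene over the 10 libraries. Nearest to Vegfa were Ndufs7 and Ndufs5 (0.155 and 0.207, beside a spread of 1.21 of Vegfa itself). Nearest to Egfl7 were Mgp and Nexn (0.340 and 0.398, beside 2.14), nearest to Fabp4 Pde4dip and Slc25a4 (0.458 and 0.514, beside 2.25) and nearest to Eng Nppb and Lamb2 (0.112 and 0.165, beside 1.05). For Tie1 they were Immt and Pkp2 (0.114 and 0.120, beside 0.550), for Cdh5 Lrrc39 and Cdc42ep1 (0.0696 and 0.0709, beside 0.269), for Flt1 Prune2 and Tnfaip1 (0.0407 and 0.0463, beside 0.251) and for Kdr Uty and Podxl (0.0838 and 0.0902, beside 0.278). For Pecam1 they were Sh2b3 and Tmod3 (0.292 and 0.301, beside 0.717) and for Cd36 Ifi27 and Xaf1 (0.290 and 0.299, beside 0.663). Over the 8 libraries without control 1 and control 5, the nearest to Fabp4 were Hrc and Ckmt2 (0.120 and 0.131, beside 0.772), and none of the pairs named above for the 10 genes recurred except Lrrc39 for Cdh5 and Podxl for Kdr. All likenesses over the 10 libraries rest largely on control 1 and control 5 where these stand apart.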

How the data were processed

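RNA of 5 control and 5 metformin blood samples was extracted with TRIzol and made into Nextera XT libraries, which do not mark strand. The submitters' processing notes name TopHat2, Cufflinks and GRCm38. One column per library was deposited, in log2 FPKM, with an unstated offset. Sorted values are almost alike between libraries, a step the sources used here do not name. Values were taken as deposited. Positions are from GENCODE M21 (GRCm38), which matched 8897 of 8904 identifiers.

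Genes reaching a log2 FPKM of 1 in 5 or more libraries were tested in R 4.3.3 with limma 3.58.1 (lmFit, eBayes with a trend, two-sided), with Benjamini-Hochberg adjustment across 3442 genes and calls at 0.05. The same genes were tested without control 1 and control 5. Exact permutation tests were adjusted over all 8904 genes. Alternatives were another pseudocount (0.1, assuming an offset of 1), other filters, median centring, other variance models, library weights, the replicate number as a block and leaving out each library.

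The 10 genes, the division of the controls, the gene lists and the tests were chosen with earlier results of these data known. Named are the 10 genes, the 2 genes nearest to each, up to 4 called genes and the 4 with the largest difference in control 1 and control 5 of each endothelial or pathway list, and leading genes of other lists. Genes outside this rule, such as Vwf, Esam, Hif1a, Akt1, Cfd and Cidec and those of the closing observations, were chosen after their values were seen.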

Additional observations from a re-analysis of the deposited data

Results flagged for a closer look

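In each group of 5 libraries the gap between the highest or lowest value and its neighbour was compared with the range of the group, against Dixon's critical value of 0.71. Of 20 groups checked (10 genes in 2 groups), 4 were past it. The nominal share by chance is about 5%, but the share over all genes was not computed, so the count is a description. Kdr in control 1 was at 1.13 against 0.40 in the next library. Flt1 in metformin 5 was at 0.39 against 0.29 in the next, a gap of 0.78 of the range, with all 5 values near the bottom of their libraries. Pecam1 in metformin 2 was at 1.43, with the nearest metformin library at 2.77, and the platelet list of that library was at 0.50 against 4.23 to 4.77 in the others. Egfl7 in metformin 4 was at 1.41 against 0.83. The check cannot mark control 1 or control 5 where both are high together.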

How the results depend on the processing

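Of the 10 genes none was called under any alternative that kept control 1 or control 5, and 1, Fabp4, without both. Fabp4 turned from -0.94 to 1.53 without both, to 0.89 with weights per library, and to 0.25 without control 1 alone (-1.66 to 0.25 over the libraries left out), and Vegfa from -0.75 to 0.55 without both and to 0.092 with weights. In the comparison without control 1 and control 5, 1 to 2 of the 10 were called as libraries were left out.

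Counts over all genes moved more. From 252 calls (145 higher, 107 lower) they went to 73 without the filter, 116 with the stricter filter, 739 with weights, 512 without control 1 and control 5, and 51 to 444 as each library was left out. Single libraries moved it past 1.5 times, to 444 (control 3), 67 (control 5), 106, 72, 64 and 51 (metformin 1, 3, 4 and 5). Centred on the median, 129 were higher and 158 lower. Without control 1 and control 5 the 512 calls became 776 without the filter, 179 with the stricter filter and 334 to 523 as libraries were left out, with 334, 341 and 339 without control 2, metformin 4 and metformin 5. Fewer libraries or a different set of tested genes is part of these settings by construction, and otherwise the cause was not tested.

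Same-numbered control and metformin libraries had correlations of -0.25 to 0.13 between their deviations. These gave no sign that the numbers pair the samples, but so few values cannot exclude it. With the replicate block 30 genes were called and none of the 10. Depth is unknown, and Kdr, Tie1 and Egfl7 were each at the lowest value of 1 library.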

Other observations

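Other cells of the vessel wall and its surroundings were also unlike between libraries. Acta2 and Tagln, actin and transgelin of smooth muscle, were at 5.08 and 4.70 in control 1 and at 1.97 and 1.71 in control 5, and at 0.17 to 0.58 and 0.31 to 0.56 in the other 8 libraries. Mgp, a matrix protein of vessel walls, was at 7.18 and 5.80 against 0.47 to 1.21. Of the 14 measured fibroblast and mural cell markers 9 were above the other 8 libraries in both. The complement genes C1qa, C1qb and C1qc, made by tissue macrophages, were at 2.35, 1.81 and 1.43 in control 1 and at 2.98, 2.27 and 1.74 in control 5, against 0.23 to 0.95, 0.36 to 0.78 and 0.23 to 1.26. Unlike the endothelial genes they were higher in control 5.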
